A study of Mus musculus with 6 samples.

Results

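The enzymes that make, interconvert and salvage purine and pyrimidine nucleotides and deoxynucleotides were examined in RAW264.7 macrophages treated with SKI-II. The set holds 33 genes of the 49315 in the count table, listed by symbol for the known role of their enzymes. It covers de novo purine synthesis, de novo pyrimidine synthesis, ribonucleotide reductase and the other steps that supply deoxynucleotides, and salvage. All 33 symbols were found in the table. After treatment, 24 of these genes had fewer transcripts and 2 had more, with *Rrm2*, *Tk1* and *Rrm1* between 5.10-fold and 6.09-fold lower and *Tk2* 2.55-fold higher.

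A cell builds purines on the activated sugar PRPP, step by step up to inosine monophosphate (IMP), from which AMP and GMP branch. Pyrimidines are made as a ring first, joined to PRPP, and converted to UTP and CTP. Ribonucleotide reductase turns ribonucleotides into the deoxynucleotides of DNA, and thymidylate has its own supply line. Several of these enzymes are known to follow the cell cycle, being made mostly in cells that copy their DNA, while salvage enzymes recycle bases and nucleosides, and a separate set of kinases serves the mitochondria. RAW264.7 cells, a mouse line with macrophage properties, divide in culture.

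RNA was sequenced from wild-type RAW264.7 cells kept for 24 h with 4 μg/mL of SKI-II, a small molecule known as an inhibitor of sphingosine kinase, or with its vehicle DMSO, in 3 libraries each. The study asked how the compound alters host defence, and this comparison gives the response to the compound alone. The libraries held 12495957 to 20050677 counts. The 10 most abundant genes took 6.68% to 8.79% of the counts with DMSO and 9.08% to 11.1% with SKI-II, and mitochondrial transcripts took 1.07% to 1.25% and 1.38% to 1.71%. Of 10 macrophage markers all were expressed, with a summed level of 9010 to 12200 CPM, that is counts scaled to a common library total, with DMSO and 5720 to 8080 with SKI-II. *Lyz2* was the most abundant of them in every library. Over the 10 markers 4 (40%) were called lower, 2 (20%, *Cd14* and *Fcgr1*) higher and 4 not at all. Their median log2 fold change was -0.15. Of all tested genes 19.7% were called lower and 18.4% higher. Of 12 markers of other cell types, 6 had no count and none exceeded 18 counts in a library. The methods have the cells treated as for a PCR assay that was run in biological replicates, but the labels do not say which libraries came from separate cultures, and the tests measure the spread between these libraries. In bulk RNA, fewer cells that express a gene, for example fewer dividing cells, and less of its RNA per cell cannot be told apart.

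Differences are log2 fold changes, SKI-II against DMSO, with their standard errors (SE), from edgeR's quasi-likelihood test, and a gene was called at a Benjamini-Hochberg adjusted p below 0.05 over the 12274 genes tested. All 33 genes passed the filter on low counts. SKI-II lowered 24 of them (72.7%), where 19.7% of all tested genes were lower, and raised 2 (6.06%), where 18.4% of all were higher. With a log2 fold change beyond 1 as a further condition, 12 were lower and 1 was higher, against 7.44% and 8.28% of all tested genes. The DMSO and SKI-II libraries did not overlap in 26 genes that were lower with SKI-II and in 3 that were higher, which was so for 25.5% and 24.8% of all tested genes. The median log2 fold change was -0.82 over the 33 genes and 0.00377 over all tested genes. The 7 genes that were not called were *Impdh1*, *Gmps*, *Adss*, *Aprt*, *Hprt*, *Nme2* and *Samhd1*.

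**Figure D1:**
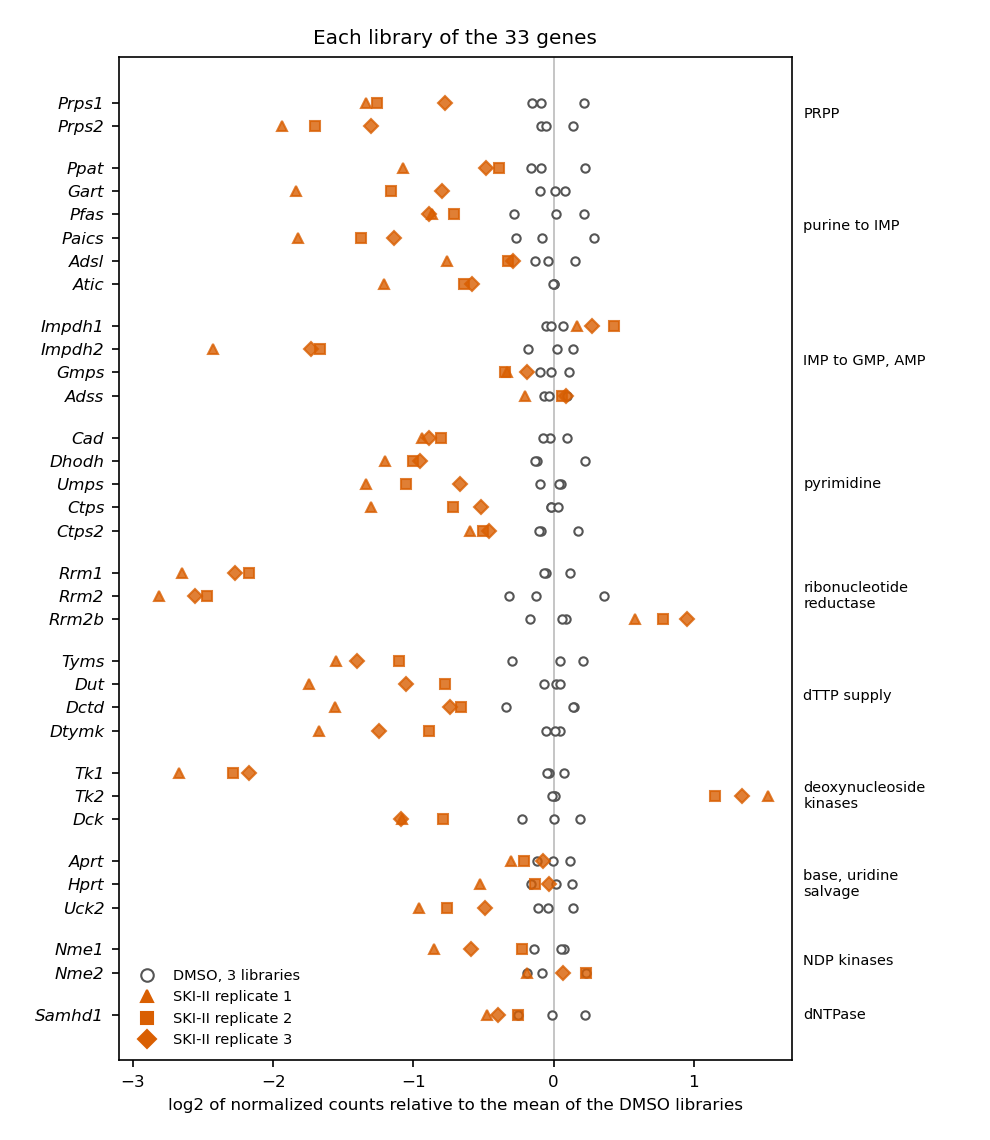
Each gene in each library, as log2 of its normalized counts over the mean of the DMSO libraries, grouped by role. Open circles are the 3 DMSO libraries and filled symbols the 3 SKI-II libraries, and SKI-II replicate 1 (triangles) is the lowest library in 22 of the 24 genes called lower.

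**Figure D2:**
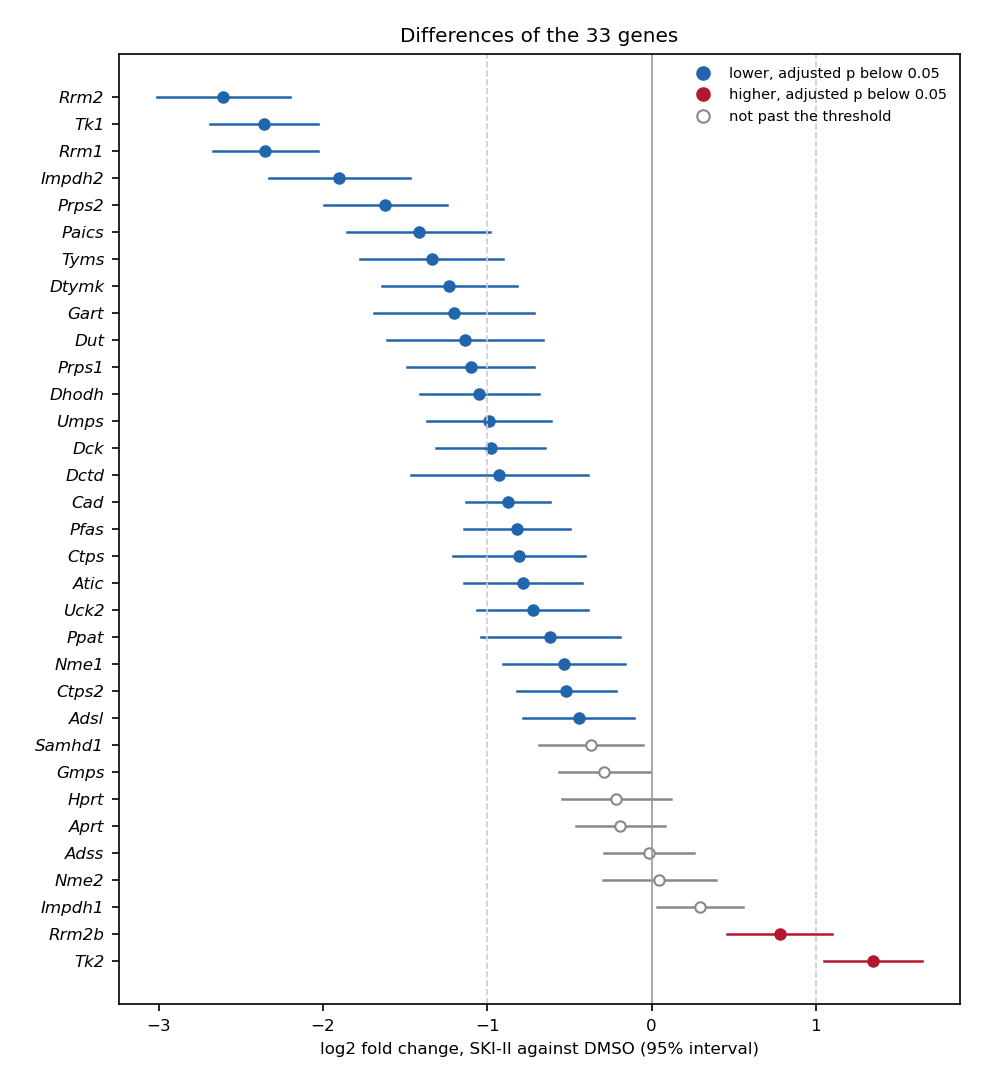
Log2 fold changes of the 33 genes with 95% intervals, ordered by size. Blue points are the 24 genes called lower and red points the 2 called higher, open points were not called, and dashed lines mark log2 fold changes of -1 and 1, which 12 genes passed downward and 1 upward.

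The sequence upstream of the genes that changed most was read from RefSeq promoter windows on GRCm38.p6, which run from 250 bases before to 50 bases after each annotated start. Windows were found for 30 of the 33 genes, 38 windows in all. The stretches shown lie up to 150 bases before the start and outside the annotated gene, written 5′ to 3′ on the gene's strand. They are given for the 3 genes that fell most, *Rrm2*, *Tk1* and *Rrm1*, and for *Tk2*, which rose while *Tk1* fell, and capitals mark CCAAT, the letters bound by NF-Y, and TTTGAA, the core of the cell cycle homology region (CHR).
Rrm1, chr7:102441545-102441694, plus strand: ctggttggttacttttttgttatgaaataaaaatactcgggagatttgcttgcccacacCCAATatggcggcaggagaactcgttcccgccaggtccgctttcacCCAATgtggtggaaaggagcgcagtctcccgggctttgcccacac
Rrm2, chr12:24708104-24708240, plus strand: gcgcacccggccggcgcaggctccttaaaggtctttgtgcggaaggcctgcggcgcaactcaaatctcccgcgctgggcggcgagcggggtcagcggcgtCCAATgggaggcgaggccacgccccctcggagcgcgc
Tk1, chr11:117826093-117826164, minus strand: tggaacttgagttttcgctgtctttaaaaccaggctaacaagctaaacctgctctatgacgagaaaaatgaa
Tk2, chr8:104248559-104248708, minus strand: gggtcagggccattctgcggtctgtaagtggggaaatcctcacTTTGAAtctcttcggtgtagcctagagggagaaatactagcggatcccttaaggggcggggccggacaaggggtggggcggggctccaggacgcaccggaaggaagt
The *Rrm1* stretch held 2 CCAAT matches and the *Rrm2* stretch 1, whereas the *Tk2* stretch held 1 TTTGAA and the *Tk1* stretch neither. The *Tk1* stretch has only 72 bases, against 150 for *Rrm1* and *Tk2*, and ends 79 bases before the start, so the stretches are not alike in reach.

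Across whole windows and both strands, CCAAT stood in 12 of the 38 windows (31.6%), against 37.4% of all 32851 windows and 37.9% of the 11745 windows of tested genes. TTTGAA stood in 13.2% of the 38, against 17.9% and 12.3%. An E2F site, searched as TTTCCCGC, TTTCGCGC, TTTGCCGC or TTTGGCGC, was found in 2 windows (5.26%), those of *Ppat* and *Prps2*, against 2.26% and 4.02%. Only these exact letters were counted, so a window without a match may still hold an E2F site with other letters. The E-box CACGTG, the letters bound by MYC, MAX and related factors, stood in 7 windows (18.4%), against 7.15% and 10%. The amino acid response element TGATGCAAT was in none of the 38 windows, against 0.192% and 0.119%. No searched motif holds the letters of another. A match is a description of the letters in a window and no evidence of binding.

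The 7 windows with an E-box belonged to *Atic*, *Dtymk*, *Impdh2*, *Nme1*, *Paics* and *Tyms*, of which *Nme1* has a match in each of a pair of windows, and all 6 of these genes were called lower, as were 24 of the 33 (72.7%). Only 30 of the 33 could be searched, since *Pfas* and *Dhodh*, called lower, and *Rrm2b*, called higher, had no window. Each match is shown in capitals with 10 bases on either side because its place differed from gene to gene, from 203 bases before the start in *Paics* to 7 bases before it in *Atic*.
Atic, chr1:71557139-71557164, plus strand: acctcggggtCACGTGgggtcgacac
Dtymk, chr1:93802067-93802092, minus strand: ctcgaacttcCACGTGaccagagcct
Impdh2, chr9:108560316-108560341, plus strand: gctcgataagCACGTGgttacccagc
Nme1, chr11:93968275-93968300, minus strand: tgcggggaacCACGTGaggccgggga
Nme1, chr11:93968039-93968064, minus strand: cttgatacgcCACGTGggctcgcctt
Paics, chr5:76951089-76951114, plus strand: cctcggaaagCACGTGgagggacctg
Tyms, chr5:30073671-30073696, minus strand: ccacttctgtCACGTGggggcggggt
The *Ppat* window held 2 E2F matches, here in capitals, both on the strand opposite to the searched letters.
Ppat, chr5:76951772-76951799, minus strand: agcagaccgcGCGGGAAAaaagggcagt
Ppat, chr5:76951719-76951746, minus strand: ggatcagaggGCGGGAAAgggaggtgca

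Both PRPP synthetases fell. These enzymes make the activated ribose phosphate that de novo purine and pyrimidine synthesis draw on. Per library, *Prps2* stood at 1608, 1648 and 1883 normalized counts in DMSO replicates 1, 2 and 3 and at 448, 528 and 695 in SKI-II replicates 1, 2 and 3. The means were 1713 ± 149 and 557 ± 126 (SD, n = 3), with a log2 fold change of -1.62 ± 0.17 (SE) and an adjusted p of 9.2e-05. *Prps1* stood at 1416, 1476 and 1825 with DMSO and at 622, 656.5 and 918 with SKI-II, which is a log2 fold change of -1.10 ± 0.17 with an adjusted p of 0.00101. Every SKI-II library lay below every DMSO library for both genes.

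All 6 genes of the path from PRPP to IMP were called lower, with log2 fold changes from -1.42 to -0.44. The largest falls were those of *Paics*, whose protein carries out the carboxylation and the following ligation in the middle of the path, and *Gart*, a trifunctional enzyme of its early steps. *Paics* had 4406, 5010 and 6478 normalized counts with DMSO and 1498, 2044 and 2409 with SKI-II. The means were 5298 ± 1066 and 1984 ± 458 (SD, n = 3), with a log2 fold change of -1.42 ± 0.20 (SE) and an adjusted p of 0.00050. *Gart* had 3380, 3217 and 2982 normalized counts with DMSO and 892, 1428 and 1840 with SKI-II, where replicate 1 was the lowest by far. The means were 3193 ± 200.4 and 1387 ± 476, with a log2 fold change of -1.20 ± 0.22 and an adjusted p of 0.00224. *Pfas*, the amidotransferase that follows *Gart* in the path, fell by 0.82 ± 0.15 on the log2 scale, and *Atic*, the bifunctional enzyme that closes the purine ring, fell by 0.78 ± 0.16.

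*Ppat*, the amidotransferase that commits PRPP to purines, had a smaller change of -0.62 ± 0.19 (adjusted p = 0.0276), and *Adsl*, which acts both before IMP and on the way to AMP, had the smallest, -0.44 ± 0.15 (adjusted p = 0.0424). Neither call held in every subset of the libraries. The adjusted p of *Ppat* was 0.0569 without DMSO replicate 2, 0.0678 without SKI-II replicate 1 and 0.0732 without DMSO replicate 1. That of *Adsl* was 0.103 without DMSO replicate 1, 0.0975 without DMSO replicate 2, 0.108 without SKI-II replicate 1 and 0.0656 without SKI-II replicate 2. *Ppat* and *Paics* are head to head on chromosome 5, at chr5:76913249-76951578 on the minus strand and chr5:76951307-76967509 on the plus strand in GENCODE M21. Their exons overlap by 272 bases, and since the strandedness of the counting is not given, reads from that overlap cannot be assigned. The exons of *Gart* overlap by 1014 bases with those of an antisense gene, Gm15964, which had 42 to 68 counts in a library, and the same limit holds there.

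Of the 4 genes that lead from IMP to GMP and AMP, only *Impdh2* was called. IMP dehydrogenase is the rate-limiting enzyme of guanine nucleotide synthesis and has a pair of isoforms, of which IMPDH2 is known as the one induced in growing cells. *Impdh2* had 3439, 3967 and 4302 normalized counts with DMSO and 724, 1233 and 1177 with SKI-II. This was 3903 ± 435 against 1045 ± 279 (SD, n = 3), 26.8% of the DMSO mean, with a log2 fold change of -1.90 ± 0.19 (SE) and an adjusted p of 8.7e-05. Its exons overlap by 48 bases those of *Ndufaf3*, on the opposite strand, which had 253 to 422 counts in a library. The other isoform, *Impdh1*, had 2201, 2258 and 2398 normalized counts with DMSO and 2562, 3079 and 2763 with SKI-II. All SKI-II libraries lay above all DMSO libraries, but the log2 fold change of 0.29 ± 0.12 (95% interval 0.03 to 0.55) was not called, with an adjusted p of 0.0728. A fit blocked by replicate number did call it (adjusted p = 0.0482). *Gmps*, which makes GMP, had a log2 fold change of -0.29 ± 0.12 (adjusted p = 0.0948). *Adss*, which starts the branch to AMP, had one of -0.01 ± 0.12, with a 95% interval from -0.29 to 0.26.

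All 5 genes of de novo pyrimidine synthesis were called lower, within a narrow range of log2 fold changes from -1.05 to -0.52. *Cad*, the large protein that holds the activities of the initial steps, had 5148, 5596 and 4982 normalized counts with DMSO and 2740, 3004 and 2830 with SKI-II, with a log2 fold change of -0.87 ± 0.11 (SE). *Dhodh*, the mitochondrial dehydrogenase that makes orotate, had 440, 436 and 558 with DMSO and 208, 239 and 247 with SKI-II. The means of 478 ± 69.6 and 231 ± 20.4 (SD, n = 3) gave a log2 fold change of -1.05 ± 0.16 and an adjusted p of 0.000919. *Umps*, which turns orotate into UMP, was close behind at -0.99 ± 0.17. Its exons overlap by 213 bases those of the antisense gene Gm15829, which had at most 4 counts in a library. The CTP synthetases, which convert UTP to CTP, fell too, *Ctps* by 0.81 ± 0.18 and *Ctps2* by 0.52 ± 0.13 on the log2 scale.

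Ribonucleotide reductase is built from a large subunit, RRM1, and a small subunit that is RRM2 in cells copying their DNA or RRM2B, known as a p53-inducible form that supplies dNTPs for repair and for mitochondrial DNA. *Rrm1* (chr7:102441695-102469771 in GENCODE M21) had 5106, 4517 and 4475 normalized counts with DMSO and 747.5, 1044 and 973 with SKI-II. The mean fell from 4699 ± 353 to 921 ± 155 (SD, n = 3), which left 19.6% of the DMSO level, with a log2 fold change of -2.35 ± 0.14 (SE) and an adjusted p of 8.7e-06. *Rrm2* (chr12:24708241-24714146) had 3595, 2575 and 2247 with DMSO, the widest spread of the 3 subunits, and 399.5, 505 and 477 with SKI-II. It showed the largest change of the 33 genes, -2.61 ± 0.18 with an adjusted p of 1.5e-05, and 16.4% of the DMSO level was left. *Rrm2b* (chr15:37923952-37961318) moved the other way, with 454, 543 and 533 normalized counts with DMSO and 763, 874 and 986 with SKI-II. Its mean was 509.9 ± 49.0 with DMSO and 874 ± 111 with SKI-II, and the log2 fold change was 0.78 ± 0.14 with an adjusted p of 0.00231. The groups did not overlap for any of the 3 subunits. A log2 fold change below -2 with an adjusted p below 0.05 was found in 1.85% of all tested genes, and *Rrm1*, *Rrm2* and *Tk1* were the 3 of the 33 that had it.

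The 4 genes that supply dTTP were all called lower. *Tyms*, thymidylate synthase, had 435, 389 and 307 normalized counts with DMSO and 129, 176 and 143 with SKI-II. The means of 377 ± 64.9 and 149 ± 24.1 (SD, n = 3) gave a log2 fold change of -1.34 ± 0.19 (SE) and an adjusted p of 0.000662. *Dtymk*, which phosphorylates the product of thymidylate synthase, had 914, 852 and 891 with DMSO and 277.5, 479 and 374 with SKI-II, with a log2 fold change of -1.23 ± 0.18 and an adjusted p of 0.000783. *Dut*, which breaks down dUTP and so both keeps uracil out of DNA and feeds thymidylate synthase, had 801, 817.5 and 753.5 with DMSO and 236, 462 and 380.5 with SKI-II. Its log2 fold change was -1.13 ± 0.21 with an adjusted p of 0.00263. The DMSO libraries of *Dut* and *Dtymk* lay close together, whereas the SKI-II libraries spread, with replicate 1 the lowest. *Dctd*, the dCMP deaminase that provides dUMP, had a log2 fold change of -0.93 ± 0.24 (adjusted p = 0.0134), and its adjusted p was 0.0523 without DMSO replicate 2.

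The kinases that salvage deoxynucleosides did not move together. *Tk1*, the cytosolic thymidine kinase, which is known to be made around the time of DNA replication, had 1591, 1708 and 1574 normalized counts with DMSO and 255, 333 and 360 with SKI-II. Its mean fell from 1625 ± 73.0 to 316 ± 54.5 (SD, n = 3), to 19.5% of the DMSO level, with a log2 fold change of -2.36 ± 0.15 (SE) and an adjusted p of 8.8e-06. *Tk1* lies at chr11:117815526-117826092 in GENCODE M21, and its exons overlap those of *Afmid*, on the opposite strand, by 83 bases. *Afmid* had 99 to 288 counts in a library. *Tk2* (chr8:104226685-104248558), the mitochondrial thymidine kinase, had 438, 440 and 433 normalized counts with DMSO, almost without spread, and 1260, 970 and 1110 with SKI-II. Means of 437 ± 3.65 and 1113 ± 145 gave a log2 fold change of 1.35 ± 0.13 and an adjusted p of 7.1e-05. *Tk2* was the only gene of the 33 with a log2 fold change above 1. *Dck*, deoxycytidine kinase, fell by 0.98 ± 0.15 on the log2 scale, with an adjusted p of 0.000841.

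Salvage of bases showed no called change. *Aprt* and *Hprt*, the phosphoribosyltransferases that return adenine and, respectively, hypoxanthine and guanine to nucleotides, had log2 fold changes of -0.19 ± 0.12 and -0.21 ± 0.15 (SE), and their groups overlapped. The 95% intervals ran from -0.46 to 0.08 for *Aprt* and from -0.55 to 0.12 for *Hprt*, so falls of the size of those in *Impdh2* or *Rrm2* lay outside them. *Uck2*, the uridine-cytidine kinase, had 9059, 9480 and 10760 normalized counts with DMSO and 5018, 5762 and 6955 with SKI-II, and its log2 fold change of -0.72 ± 0.15 was called (adjusted p = 0.00465). Gm2453, which overlaps its exons by 150 bases on the opposite strand, had at most 1 count in a library. The nucleoside diphosphate kinases make the triphosphates. *Nme1* was called lower at -0.53 ± 0.17 (adjusted p = 0.0293), but without any single library other than SKI-II replicate 2 its adjusted p lay between 0.0504 and 0.0866. *Nme2* was not called, with a log2 fold change of 0.05 ± 0.15. Both genes share exon sequence, 418 and 573 bases, with the readthrough gene Gm20390 on the same strand, which had between 0 and 17 counts in a library. *Samhd1*, the dNTP hydrolase that is abundant in macrophages, had 2424, 2052 and 1743 normalized counts with DMSO and 1492, 1741 and 1576 with SKI-II. Its log2 fold change of -0.37 ± 0.14 was not called (adjusted p = 0.0645), although it was when DMSO replicate 3 was left out (adjusted p = 0.0209) and in a fit blocked by replicate number (adjusted p = 0.049).

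Related enzymes within a role moved by different amounts, and their ratio within a library is free of the scaling between libraries. *Rrm2b* had 0.126, 0.211 and 0.237 counts per count of *Rrm2* with DMSO and 1.91, 1.73 and 2.06 with SKI-II. *Tk2* had 0.276, 0.258 and 0.275 counts per count of *Tk1* with DMSO and 4.93, 2.91 and 3.08 with SKI-II. For both pairs the less counted partner became the more counted one. *Impdh2* had 1.56, 1.76 and 1.79 counts per count of *Impdh1* with DMSO and 0.283, 0.400 and 0.426 with SKI-II, so this order was inverted as well. *Prps2* against *Prps1* went from a mean log2 ratio of 0.13 to -0.40, and *Nme2* against *Nme1* from 0.43 to 1.03. In these 5 pairs the libraries of the groups did not overlap, which gave an exact permutation p of 0.1 (two-sided), the smallest that 3 against 3 libraries allow, and 0.12 after adjustment over the 6 pairs compared. For *Ctps2* against *Ctps* the groups overlapped, with mean log2 ratios of -1.44 and -1.11 (exact permutation p = 0.2). These ratios are of counts and are not corrected for transcript length.

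**Figure D3:**
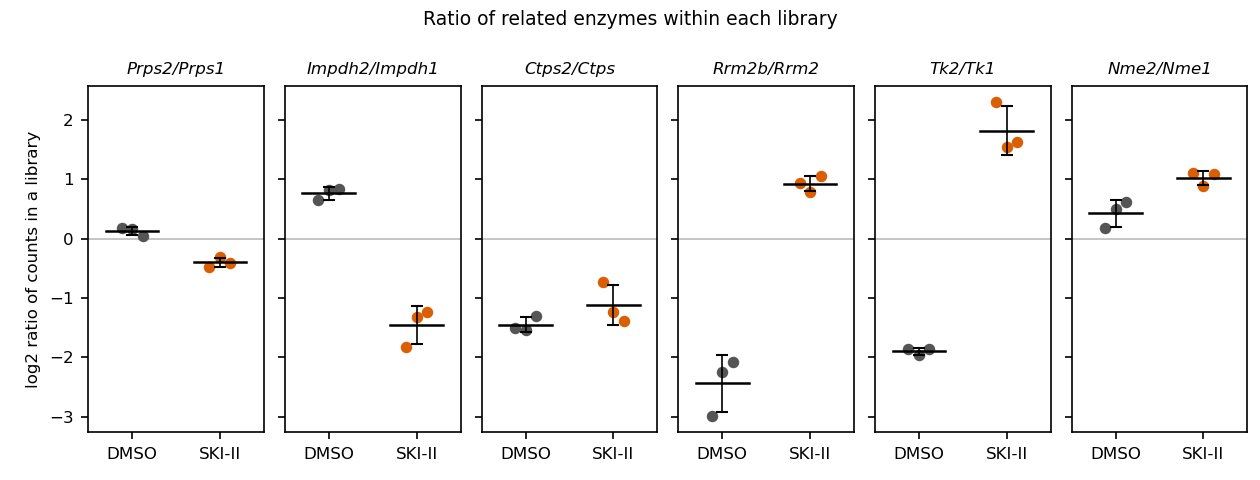
Log2 ratio of the counts of related enzymes in each library, with points for libraries, a bar at the mean and whiskers of 1 SD (n = 3). *Rrm2b* over *Rrm2* moved from a mean of -2.44 to 0.92, *Tk2* over *Tk1* from -1.89 to 1.82 and *Impdh2* over *Impdh1* from 0.77 to -1.46, while *Ctps2* over *Ctps* overlapped between the groups.

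To compare genes with each other, levels were taken as CPM on the scaled library sizes, per kb of exon. With DMSO the most abundant transcripts were those of *Aprt* (139 ± 11.4, SD, n = 3), *Uck2* (111 ± 10.1), *Hprt* (109 ± 10.9) and *Paics* (105 ± 21.2), followed by *Impdh2* (79.1 ± 8.81). *Aprt* stood above *Uck2* by more than their SDs, whereas *Uck2*, *Hprt* and *Paics* lay within each other's spread. The lowest were *Tyms* (3.86 ± 0.665) and *Rrm2b* (3.48 ± 0.335), which again lay within each other's spread. With SKI-II *Aprt* (122 ± 9.69) and *Hprt* (93.9 ± 16.1) led, and *Nme2* (77.2 ± 11.1), *Uck2* (67.45 ± 11.2) and *Impdh1* (53.0 ± 4.93) came next, where from *Hprt* on each overlapped with its neighbour within 1 SD. Among the 33 genes *Rrm2* went from rank 7 to 18, *Rrm1* from 15 to 28 and *Tk1* from 21 to 31, while *Tk2* went from rank 29 to 12. The level of *Rrm2b* with SKI-II, 5.97 ± 0.760, was still below that of *Rrm2*, 10.4 ± 1.23, on this scale, in contrast to their order by counts. *Tk2*, at 19.4 ± 2.53 with SKI-II, was above *Tk1* at 3.79 ± 0.654.

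**Figure D4:**
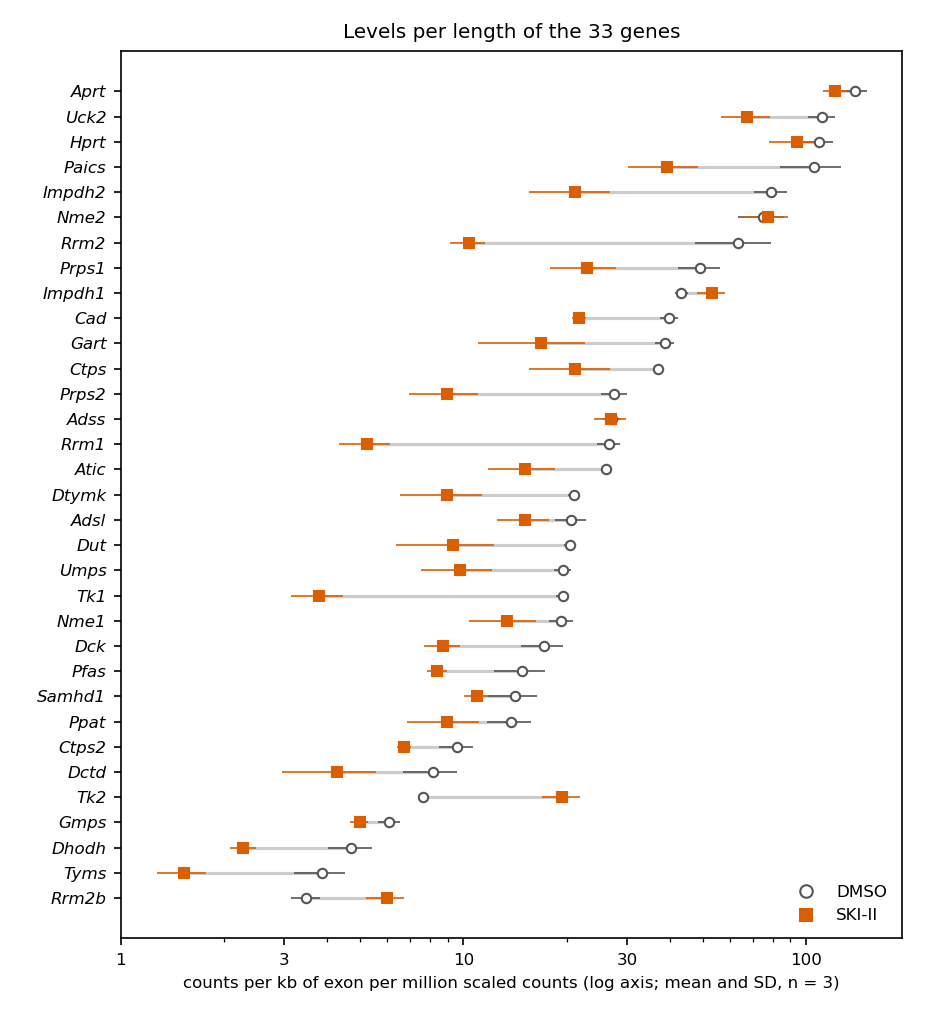
Levels of the 33 genes per kb of exon on a log axis, ordered by the DMSO mean, with open circles for DMSO and squares for SKI-II and whiskers of 1 SD (n = 3). *Aprt* is at the top in both groups (139 and 122), and *Rrm2*, *Rrm1*, *Tk1* and *Impdh2* show the longest distances between the groups.

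Summed over the 33 genes, the set took 4665, 4472 and 4331 CPM with DMSO and 2220, 2728 and 2791 with SKI-II, so that 57.5% of the DMSO share was left. Ribonucleotide reductase kept the least, 28.0% of its DMSO share, with 596, 484 and 425 CPM with DMSO and 120.1, 152 and 149 with SKI-II. The PRPP synthetases kept 39.2%, the dTTP supply genes 44.5%, the path to IMP 50.5% and pyrimidine synthesis 55.3%. The deoxynucleoside kinases kept 62.9%, since the rise of *Tk2* made up for part of the fall of *Tk1*. Base and uridine salvage kept 70.4%, the branches from IMP 72.1%, *Samhd1* 76.7% and the nucleoside diphosphate kinases 88.9%. The sum over all 33 genes was lower in every SKI-II library than in every DMSO library.

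The SKI-II libraries were not alike for these genes. SKI-II replicate 1 was the lowest of all 6 libraries in 22 of the 24 genes called lower, the other 2 being *Pfas* and *Dck*, where replicate 3 was. Over all 2413 genes called lower, replicate 1 was the lowest in 52.5%. It was also the highest library for *Tk2*, but the lowest of the SKI-II libraries for *Rrm2b*. Without it, 21 of the 33 genes were called lower and the same number, 2, higher.

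Of 66 further genes of nucleotide and folate metabolism, 65 were matched and 55 were expressed enough to be tested, and 18 of these (32.7%) were lower and 9 (16.4%) higher with SKI-II, beside 19.7% and 18.4% of all tested genes. Of 13 folate genes 7 were lower and 2 higher. *Aldh1l2*, the mitochondrial formyltetrahydrofolate dehydrogenase, rose by 2.64 ± 0.15 (SE) on the log2 scale, from 1871 ± 330.2 to 11694 ± 837 normalized counts (SD, n = 3). The cytosolic counterpart *Aldh1l1* had 47 counts over the 3 DMSO libraries and 1 count over the 3 SKI-II libraries, a scaled ratio of 0.019 with an exact 95% interval from 0.000471 to 0.111 that covers counting error only. Of 15 other nucleotide kinases 5 were lower and 1 higher. *Cmpk2*, a mitochondrial UMP-CMP kinase induced by interferon, fell by 2.21 ± 0.51 on the log2 scale, or by 1.27 without DMSO replicate 1, in which it was 452 against 126 and 111 in the other DMSO libraries. *Ak3*, the GTP-using kinase of the mitochondrial matrix, was the one called higher, at 0.39 ± 0.12 (adjusted p = 0.0271), and was not called without any single library other than DMSO replicate 3, or with no filter on low counts (adjusted p = 0.0747).

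Among 9 tested enzymes of interconversion, 3 were lower and 3 higher. The AMP deaminases, which turn AMP back into IMP, were among the latter, *Ampd3* with 386, 330 and 290 normalized counts with DMSO and 3219, 1879 and 1423 with SKI-II (log2 fold change 2.70 ± 0.26, SE) and *Ampd2* with a log2 fold change of 1.05 ± 0.13. *Adssl1*, the muscle-type isoform of adenylosuccinate synthetase, fell by 1.26 ± 0.14, whereas *Adss* showed the change of -0.01 given above, and *Dctpp1*, a dCTP pyrophosphatase, fell by 1.14 ± 0.20. Of 14 genes of breakdown, 2 (14.3%) were lower and 3 (21.4%) higher, shares near those over all tested genes. *Xdh*, xanthine dehydrogenase, which makes uric acid, rose by 1.59 ± 0.16 on the log2 scale, from 1811 ± 335 to 5462 ± 768 normalized counts (SD, n = 3), and *Dpys*, dihydropyrimidinase, rose by 0.93 ± 0.26 (adjusted p = 0.0188). The call of *Dpys* was lost when DMSO replicate 2 (adjusted p = 0.0839) or SKI-II replicate 3 (adjusted p = 0.0702) was left out. *Gda*, guanine deaminase, fell by 1.19 ± 0.24 and *Ada*, adenosine deaminase, fell by 0.61 ± 0.16, the latter with an adjusted p of 0.0621 without SKI-II replicate 2. Of 4 nucleoside transporters *Slc29a1*, the equilibrative transporter ENT1, was the one called, and fell by 1.15 ± 0.24.

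**Figure D5:**
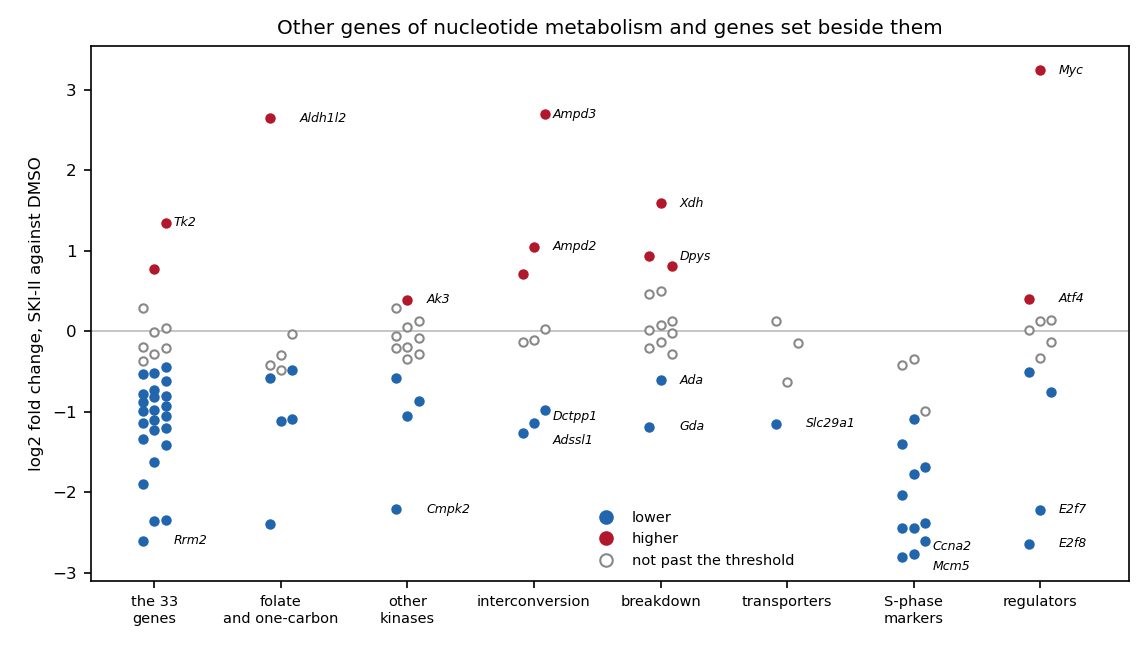
Log2 fold changes of the 33 genes beside the other tested genes of nucleotide and folate metabolism, S-phase markers and regulators, 1 point per gene, with named genes labelled. Lower calls fill the left column (24 of 33) and the S-phase markers (11 of 14), while breakdown and interconversion hold calls in both directions, and *Aldh1l1*, with 1 count in all SKI-II libraries, and 3 genes not reported here are not drawn.

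Markers of cells that copy their DNA moved with the synthesis genes. Of 14 S-phase and replication genes 11 were lower, with a median log2 fold change of -1.90 over the 14, and none was higher. *Mcm5*, a subunit of the replicative helicase, had 5121, 5001 and 4280 normalized counts with DMSO and 569.5, 853 and 646 with SKI-II, and *Ccna2*, cyclin A2, had a log2 fold change of -2.77 ± 0.17 (SE). The 3 that were not called, named after their values were seen, were *Mcm2*, *Ccne1* and *Ccne2*. Among 11 regulators 4 (36.4%) were lower, 2 (18.2%) higher and 5 not called, where 19.7% and 18.4% of all tested genes were lower and higher. The E2F repressors *E2f8* and *E2f7* fell by 2.64 ± 0.19 and by 2.22 ± 0.33, and the activator *E2f1* fell by 0.51 ± 0.12, while *E2f2* (-0.33 ± 0.18), *E2f3* (0.13 ± 0.15) and *E2f4* (-0.14 ± 0.13), named after their values were seen, were not called. *Myc*, known to drive many nucleotide synthesis genes, had only 7.77, 10.1 and 7.92 normalized counts with DMSO and 129.8, 80.2 and 36.7 with SKI-II, a log2 fold change of 3.24 ± 0.52. The related *Mycn*, named after its values were seen, was far more abundant, with 15770, 17200 and 19840 with DMSO and 7133, 10350 and 13930 with SKI-II, and its log2 fold change was -0.75 ± 0.22 (adjusted p = 0.0247). *Atf4* was called higher at 0.41 ± 0.14 (adjusted p = 0.0412), and without any single library other than DMSO replicate 3 or SKI-II replicate 3 its adjusted p lay between 0.0722 and 0.149. The part of the lower number of S-phase transcripts or of these regulators in the changes of the 33 genes was not tested.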

How the data were processed

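Poly(A) RNA of RAW264.7 cells was made into libraries with the NEBNext Ultra II RNA kit. According to the submitters' processing notes the authors used Trimmomatic 0.36, STAR 2.5.2b and featureCounts of Subread 1.5.2, and tested with DESeq2. The deposited table holds raw read counts by Ensembl gene, not normalized. Which build, annotation and strand setting were used is not given in the sources used here. Names, exon lengths and gene positions come from GENCODE M21 (GRCm38), which named 49056 of 49315 identifiers. No pair of libraries of a group agreed within sampling noise (chi-square per degree of freedom 15.4 to 58.1).

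Counts were tested with edgeR 4.0.16 (R 4.3.3), with TMM scaling, its expression filter (minimum count 10, minimum total 15), the quasi-likelihood F test without a block, and adjustment after Benjamini and Hochberg over 12274 genes, in which lay 99.9% of all counts. Normalized counts are counts over the scaled library size, times the mean size of 16042438. On simulated counts for this comparison (12124 genes) edgeR recovered 87% of 100 genes changed by a log2 fold change of 1 and 100% of 100 changed by 2. The changed genes were drawn from the better counted ones, and all genes were given the same variation between libraries. In the data 38.0% of the tested genes were called, so these shares do not measure the power of the real comparison. Alternatives were DESeq2 1.42.0, limma-voom (limma 3.58.1), RLE scaling, library size alone, other filters, each library left out and the replicate number as a block.

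The 33 genes and all lists were chosen with earlier results of these data known. Per-library values are given for members called with a log2 fold change beyond 1 or moving against their role group, and for some others where the text turns on them. In the other lists the 2 largest rises and the 2 largest falls among called genes, *Myc*, *E2f1* and *Atf4* were named. Results of some genes that this rule selects are not reported here. No promoter window was matched for *Pfas*, *Dhodh* and *Rrm2b*.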

Additional observations from a re-analysis of the deposited data

How the results depend on the processing

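Of the 33 genes 24 were lower and 2 higher, and 12 and 1 when a log2 fold change beyond 1 was also required. Under DESeq2, limma-voom, RLE scaling, library size alone and both other filters the numbers were 23 to 24 lower and 2 higher, and with each library left out 20 to 24 lower (20 without DMSO replicate 2) and 2 higher. With library size alone *Adsl* was lost (adjusted p = 0.0502). With the replicate number as a block 25 were lower and 3 higher. Over all tested genes the block gave 2819 lower and 2765 higher, against 2413 and 2255 without it. Same-numbered libraries correlated by 0.246, 0.00994 and 0.458 in their deviations from the group means. SKI-II replicates 1 and 3 correlated best with the DMSO library of their own number. SKI-II replicate 2 correlated best with DMSO replicate 1 (0.296), so the numbers were not taken to pair the libraries, although a pairing was not excluded. The 18 lower and 9 higher genes of the other pathway lists became 17 to 20 and 6 to 9 with a library left out, and 18 and 10 under the block. Among the 33 genes and the other genes named by the rule, the log2 fold change changed sign in *Adss* and *Nme2*, neither of them called, in each case with a library left out. The other listed genes were not followed one by one. The log2 fold change of *Adss*, -0.01 over all libraries, ranged from -0.0673 to 0.0665, above 0 without DMSO replicate 3 (0.0356) or SKI-II replicate 1. That of *Nme2*, 0.05 over all libraries, ranged from -0.0531 to 0.177, below 0 without SKI-II replicate 2, DMSO replicate 1 (-0.0522) or DMSO replicate 2 (-0.000243). At about 17.5% common variation between libraries and 3 libraries a group, changes below a log2 fold change of 1 can be missed.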
